A study of Homo sapiens with 12 samples.

Results

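Transcripts of the fibroblast growth factor (FGF) pathway were measured across the differentiation of human embryonic stem cells toward blood cells. The genes followed were 5 ligands (FGF2, FGF4, FGF8, FGF17 and FGF19), the 4 signalling receptors (FGFR1, FGFR2, FGFR3 and FGFR4) and DUSP6. They were taken by symbol from a table of FPKM, a unit that scales read fragments to transcript length and library total, so levels of different genes can be set side by side. All 10 symbols were present, each on 1 line, among 56593 distinct symbols. In the GENCODE annotation of GRCh38, FGF2 and FGFR3 lie on chromosome 4, FGF4 and FGF19 on chromosome 11, FGF8 and FGFR2 on chromosome 10, FGF17 and FGFR1 on chromosome 8, FGFR4 on chromosome 5 and DUSP6 on chromosome 12.

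The 12 RNA-seq libraries came from H1, an established human embryonic stem cell line, with 3 libraries for each of 4 populations. These were undifferentiated H1 cells, APLNR+ cells collected at day 2, CD31+CD34+ cells at day 5 and CD43+ cells at day 8 of differentiation. APLNR is the apelin receptor, carried by mesoderm cells, CD31 and CD34 mark hemogenic endothelial progenitors, and CD43 marks hematopoietic progenitors. Differentiation was run in Custom mTeSR1 medium, with activin A and BMP4 for the first 2 days and VEGF and bFGF afterwards. bFGF is the FGF2 protein, so CD31+CD34+ and CD43+ cells were cultured with FGF2 protein that RNA-seq does not measure. Undifferentiated H1 cells were kept in mTeSR medium according to the study's methods, which do not state the FGF2 content of either base medium. FGF2 protein in the cultures of H1 and APLNR+ cells is therefore not known here. Population and time in culture cannot be told apart, because each differentiated population was collected at a single day from a single cell line. The labels do not say whether the libraries of a population came from separate cultures, and the study's methods speak of independent experiments only in general. The p values measure the spread between these libraries, which may be technical in part.

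FGF ligands bind receptor tyrosine kinases at the cell surface, usually together with heparan sulfate chains, and the activated receptors signal through adaptors, RAS and the kinase ERK. ERK signalling induces its own inhibitors, among them DUSP6, a phosphatase that inactivates ERK and whose transcript is widely used as a readout of FGF signalling. In the early embryo FGF signalling takes part in the formation and migration of mesoderm, and FGF2 is a standard component of media that keep human pluripotent cells undifferentiated.

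Differences were tested with limma on log2(FPKM + 1), on which changes of genes near or below 1 FPKM come out smaller than they are. Raised and lowered here mean an adjusted p below 0.05 together with 2-fold or more on that scale. Of the 10 genes, 9 entered the test, and FGF4 did not reach the required 1 FPKM in 3 libraries. The relative depth of the libraries, read from the spacing of their lowest values, ranged from 0.553 to 1.27 times that of CD43+ replicate 3, and replicate 1 of each population was the shallowest (0.553 to 0.747). The absolute depth is unknown. A listed 0 may stand for an estimate that failed, since EEF1A1, an abundant translation factor gene, was at 0 in 6 libraries and at 1839 to 4616 FPKM in the other 6.

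The labelled populations were checked against marker lists by their summed FPKM in each library. The lists include genes of the antigens that define the populations (APLNR, PECAM1 for CD31, CD34, and SPN for CD43). Part of the outcome was therefore fixed in advance. Pluripotency markers summed to 1484 to 1554 FPKM in H1, 505 to 575 in APLNR+, 265 to 331 in CD31+CD34+ and 121 to 141 in CD43+ cells. LIN28A carried most of the sum in the last 2 populations, at 216.8 and 118.5 FPKM. POU5F1 averaged 1002, 353.9, 84.4 and 12.5 FPKM in the 4 populations in order, and NANOG 48.6, 9.32, 4.51 and 1.44. SOX2 averaged 43.0 FPKM in H1 and 0.269 in APLNR+ cells. Mesoderm markers summed to 2.49 to 2.60 FPKM in H1, 488 to 532 in APLNR+, 388 to 437 in CD31+CD34+ and 23.5 to 28.2 in CD43+ cells. APLNR itself carried most of that sum, at 382.8 FPKM in APLNR+ and 402.5 in CD31+CD34+ cells. The 4 others measured were lowered between these populations. MESP1 fell from 26.2 to 1.08 FPKM, MIXL1 from 71.3 to 1.10, T from 4.44 to 1.06 and PDGFRA from 18.8 to 4.25. Endothelial markers were highest in CD31+CD34+ cells (393 to 546 FPKM, against 19.9 to 27.0 in H1, 48.0 to 64.9 in APLNR+ and 219 to 296 in CD43+) and blood markers in CD43+ cells (712 to 768 FPKM, against 3.95 to 27.3 in the other populations). KDR gave 276.5 FPKM of the endothelial sum in CD31+CD34+ cells. PECAM1 averaged 55.2 FPKM there and more, 95.9 FPKM, in CD43+ cells (under 2-fold), while the 4 other endothelial genes were lowered at that step. ITGA2B gave 575 FPKM of the blood sum in CD43+ cells. PTPRC, the gene for the pan-leukocyte protein CD45, stood near 0 in CD43+ cells at 0.197 FPKM.

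FGF2 fell at each of the first steps of differentiation. It stood at 16.9, 15.8 and 14.0 FPKM in the H1 libraries, at 5.48, 5.48 and 5.53 in APLNR+, at 1.39, 1.11 and 0.809 in CD31+CD34+ and at 1.10, 0.732 and 0.530 in CD43+ cells. The H1 libraries were all above the APLNR+ libraries, which were all above both later populations, and the last 2 populations overlapped. FGF2 fell by 1.34 ± 0.13 on the log2 scale from H1 to APLNR+ (SE, n = 3 and 3, limma adjusted p = 3.96e-06) and by 1.64 ± 0.13 from APLNR+ to CD31+CD34+ (limma adjusted p = 4.04e-07). Between CD31+CD34+ and CD43+ cells the change of -0.24 (95% interval -0.53 to 0.06, limma adjusted p = 0.157) was within the spread of the libraries. From H1 to CD43+ cells mean FGF2 was 19.7-fold lower. In these bulk samples, fewer cells that express a gene and less RNA per cell cannot be told apart. FGF2 shares 804 exonic bases (11.9%) with NUDT6 on the opposite strand, and the library kit does not mark strand. NUDT6 averaged 3.52 ± 0.582, 1.82 ± 0.0895, 2.06 ± 0.242 and 4.29 ± 0.774 FPKM in the 4 populations in order of differentiation (SD, n = 3), and the part of its reads in the FGF2 values was not tested.

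FGF8 and FGF17, which belong to the same ligand subfamily and are known from gastrulating mesoderm, were high in APLNR+ cells. FGF8 stood at 12.5, 10.8 and 9.39 FPKM in APLNR+ libraries, while its 9 values elsewhere ranged from 0.0831 to 0.769 FPKM. FGF17 stood at 5.40, 5.56 and 5.17 FPKM in APLNR+, at 1.58, 1.52 and 1.73 in CD31+CD34+, at 0.0700, 0.296 and 0.221 in CD43+ and at 0.0444, 0.0271 and 0 in H1 libraries. For both genes the APLNR+ libraries lay above every other library, and FGF17 kept an intermediate level in CD31+CD34+ cells that FGF8 did not. From H1 to APLNR+, FGF8 rose by 2.98 ± 0.12 (limma adjusted p = 7.78e-10) and FGF17 by 2.64 ± 0.09 (limma adjusted p = 2.07e-10) on the log2 scale. From APLNR+ to CD31+CD34+ cells, FGF8 fell by 2.96 ± 0.12 (limma adjusted p = 8.42e-10) to values that overlapped those of H1. The difference of CD31+CD34+ from H1 cells was 0.02 (95% interval -0.24 to 0.27, limma adjusted p = 0.906). FGF17 fell by 1.29 ± 0.09 at that step and by 1.13 ± 0.09 at the next, to CD43+ cells (limma adjusted p = 8.65e-08 and 5.16e-07). FGF8 passed the filter on low values through the 3 APLNR+ libraries alone, and FGF17 through the APLNR+ and CD31+CD34+ libraries, so both had to differ between populations.

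Marker lists for other cell types were summed beside these ligands. Endoderm markers summed to 11.0 to 12.5 FPKM in H1, 2195 to 2328 in APLNR+, 76.7 to 81.0 in CD31+CD34+ and 31.9 to 36.1 in CD43+ libraries, with 2, 4, 7 and 5 of the 11 listed genes averaging at least 1 FPKM. In APLNR+ cells CER1, a secreted inhibitor also made by early mesendoderm, gave 2238 FPKM of the sum, while FOXA2 (0.392 FPKM) and HNF4A (0.102 FPKM) stood near 0. From H1 to APLNR+ cells 3 of the 8 tested endoderm genes were raised: CER1, SOX17 (0.0624 to 17.5 FPKM) and CXCR4 (0.719 to 6.06 FPKM). AFP was the 1 lowered, from 8.56 to 0.990 FPKM. The list parted from CER1 at the step to CD31+CD34+ cells, where CER1 was the 1 lowered and 4 were raised (HHEX, HNF4A, APOA1 and CXCR4). SOX17 averaged 24.2 FPKM in CD31+CD34+ cells, a change under 2-fold. Cardiac and smooth muscle markers summed to 71.7 to 102 FPKM in H1 and 496 to 667 in APLNR+ libraries. Their sum was 303 to 360 FPKM in CD31+CD34+ and 46.0 to 60.6 in CD43+ libraries. Most of it was TAGLN, except in CD43+ cells, where ACTA2 averaged 34.8 FPKM and TAGLN 15.7. MYL7 averaged 1.22, 107.8, 23.1 and 0.292 FPKM in the 4 populations in order, and NKX2-5 averaged 2.77 in APLNR+ and 21.7 in CD31+CD34+ cells. Neural ectoderm markers summed to 49.8 to 59.8, 86.9 to 94.9, 62.6 to 67.0 and 9.78 to 11.95 FPKM in the same order. NES and OTX2 carried that sum, SOX3 averaged 3.09 FPKM in H1 and 0.159 in APLNR+ cells, and PAX6 and SOX1 stood near 0 in APLNR+ cells (0.192 and 0.0113 FPKM). The part of cells carrying these markers in the FGF8 and FGF17 values was not tested.

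FGF19, an endocrine-type ligand that works with FGFR4, followed another course. It stood at 1.84, 3.25 and 3.27 FPKM in H1, at 0.411, 0.764 and 0.886 in APLNR+, at 1.30, 1.84 and 1.496 in CD31+CD34+ and at 0.0889, 0.122 and 0.112 in CD43+ libraries. APLNR+ libraries were below those of H1 and of CD31+CD34+ cells, which overlapped each other, and CD43+ libraries were below all others. The fall to APLNR+ cells (1.15 ± 0.16 on the log2 scale, limma adjusted p = 6.91e-05) and the fall to CD43+ cells (1.20 ± 0.16, limma adjusted p = 5.74e-05) were called. The intervening difference of 0.60 (95% interval 0.25 to 0.95, limma adjusted p = 0.00502) stayed under 2-fold on that scale. It was called with a pseudocount of 0.1 in place of 1 (1.11, limma adjusted p = 0.00397). FGF19 passed the filter on low values through the H1 and CD31+CD34+ libraries, so it had to differ between populations.

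FGF4, a ligand of the early epiblast, was scarcely detected. Its values were 0.241, 0.355 and 0.388 FPKM in H1 and 0.0405, 0.166 and 0.137 in APLNR+ libraries, and it was listed at 0 in the 3 CD31+CD34+ libraries and in 2 of the 3 CD43+ libraries, the other standing at 0.00376 FPKM. H1 libraries were above all others. No test was run on these values.

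The make-up of these 5 ligand transcripts differed between the populations. The 5 ligands summed to 19.2 ± 0.948 FPKM in H1 and 22.6 ± 1.37 in APLNR+ cells, against 4.79 ± 0.407 in CD31+CD34+ and 1.21 ± 0.226 in CD43+ cells (SD, n = 3). FGF2 held 81.0 ± 4.79% of the sum in H1 and 24.4 ± 1.64% in APLNR+ cells, where FGF8 held 48.2 ± 4.03% and FGF17 23.8 ± 1.03%. In CD31+CD34+ cells FGF17 (33.9 ± 5.01%), FGF19 (32.2 ± 3.91%) and FGF2 (23.0 ± 5.89%) shared most of a smaller sum, and in CD43+ cells FGF2 held 64.1 ± 13.7%.

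**Figure D1:**
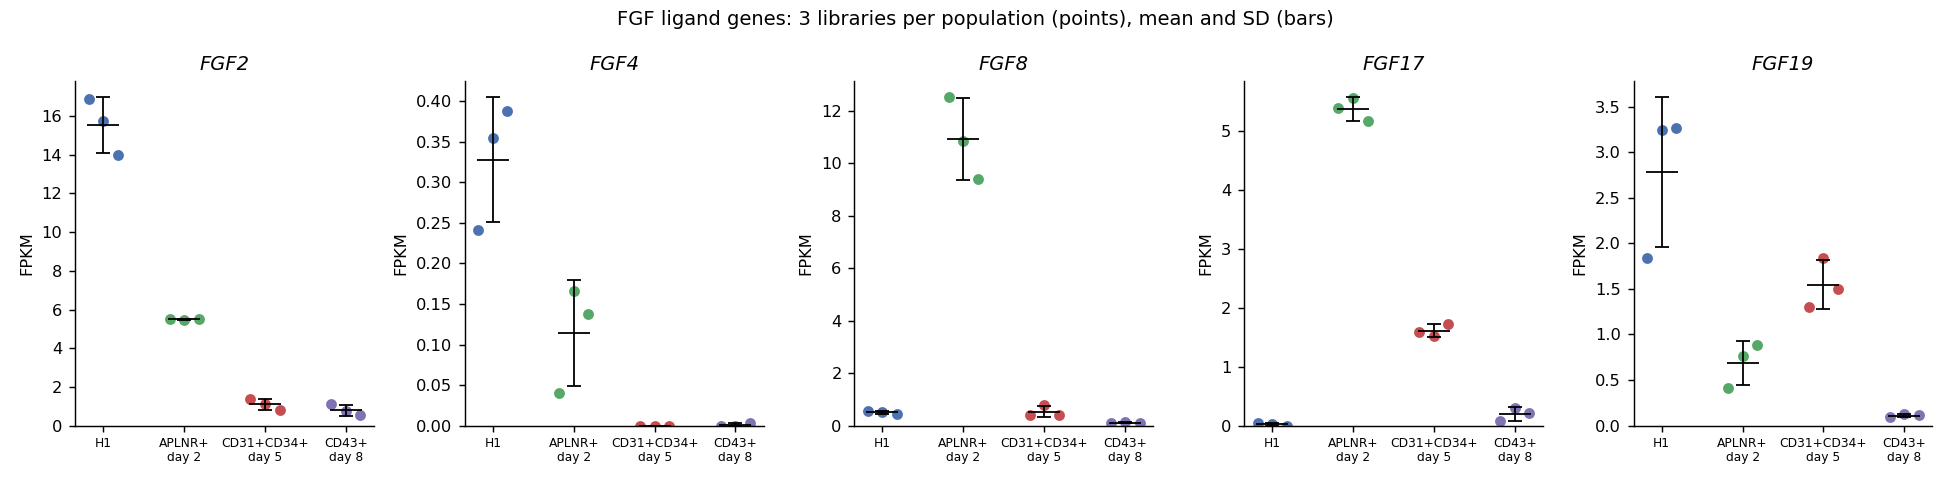
FPKM of the 5 ligand genes in each population, with 1 point per library and bars for the mean and SD (n = 3), each gene on its own linear axis. FGF2 stands at 14.0 to 16.9 FPKM in H1 and at most 1.39 FPKM in CD31+CD34+ and CD43+ cells, while FGF8 and FGF17 peak in APLNR+ cells at 9.39 to 12.5 and 5.17 to 5.56 FPKM.

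The 4 receptor genes summed to more than the 5 ligands in every population and parted from each other along the series. Single receptors were not always higher: in H1 cells FGFR3 averaged 2.50 FPKM, below FGF2 (15.5) and FGF19 (2.785). FGFR1 was the most abundant receptor gene in every library. It stood at 68.1, 81.5 and 76.9 FPKM in H1, at 64.8, 71.6 and 64.1 in APLNR+, at 86.5, 109.6 and 98.6 in CD31+CD34+ and at 17.6, 24.1 and 24.1 in CD43+ libraries. The first 2 populations overlapped, CD31+CD34+ libraries lay above all others and CD43+ libraries below. H1 and APLNR+ cells differed by -0.17 (95% interval -0.46 to 0.12, limma adjusted p = 0.287), a value that turned to 0.086 after quantile normalization. The next step gave 0.54 (95% interval 0.26 to 0.83, limma adjusted p = 0.00254), which is under 2-fold. From CD31+CD34+ to CD43+ cells FGFR1 fell by 2.12 ± 0.13 on the log2 scale, a 4.48-fold lower mean (limma adjusted p = 6.76e-08).

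FGFR2 was high in the first 2 populations and low in the others. It stood at 21.3, 19.1 and 19.2 FPKM in H1, at 18.05, 19.1 and 17.1 in APLNR+, at 4.42, 4.63 and 4.23 in CD31+CD34+ and at 2.18, 2.07 and 1.72 in CD43+ libraries. H1 and APLNR+ libraries lay close together without overlapping (-0.13, 95% interval -0.33 to 0.07, limma adjusted p = 0.258) and far above both later populations, which did not overlap. FGFR2 fell by 1.81 ± 0.09 from APLNR+ to CD31+CD34+ cells, to a mean 4.09-fold lower (limma adjusted p = 6.76e-09). The further change of -0.86 to CD43+ cells (limma adjusted p = 8.11e-06) was under 2-fold on the log2(FPKM + 1) scale and was called with a pseudocount of 0.1 (-1.12).

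FGFR3 moved the other way. It stood at 2.64, 2.17 and 2.68 FPKM in H1, at 13.3, 10.2 and 9.62 in APLNR+, at 16.1, 13.5 and 14.3 in CD31+CD34+ and at 7.49, 7.85 and 6.63 in CD43+ libraries. No H1 library came near the other populations, and the CD43+ libraries lay between H1 and the rest. FGFR3 rose by 1.77 ± 0.13 from H1 to APLNR+ cells (limma adjusted p = 1.79e-07). The later changes of 0.39 (limma adjusted p = 0.0149) and -0.91 (limma adjusted p = 7.25e-05) were under 2-fold on that scale. In CD43+ cells FGFR3 was still raised against H1 by 1.25 ± 0.13 (limma adjusted p = 1.71e-06).

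FGFR4 was high in H1 and APLNR+ cells and lower in the later populations. It stood at 17.7, 13.8 and 13.9 FPKM in H1, at 19.7, 16.3 and 13.5 in APLNR+, at 9.99, 10.2 and 9.48 in CD31+CD34+ and at 2.91, 2.46 and 1.90 in CD43+ libraries. The first 2 populations overlapped and the later ones were each below. H1 and APLNR+ cells differed by 0.11 (95% interval -0.21 to 0.43, limma adjusted p = 0.554), a value that became -0.0176 without APLNR+ replicate 1. The change to CD31+CD34+ cells was -0.67 (limma adjusted p = 0.0014), under 2-fold, and FGFR4 fell by 1.68 ± 0.15 from there to CD43+ cells (limma adjusted p = 1.56e-06).

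**Figure D2:**
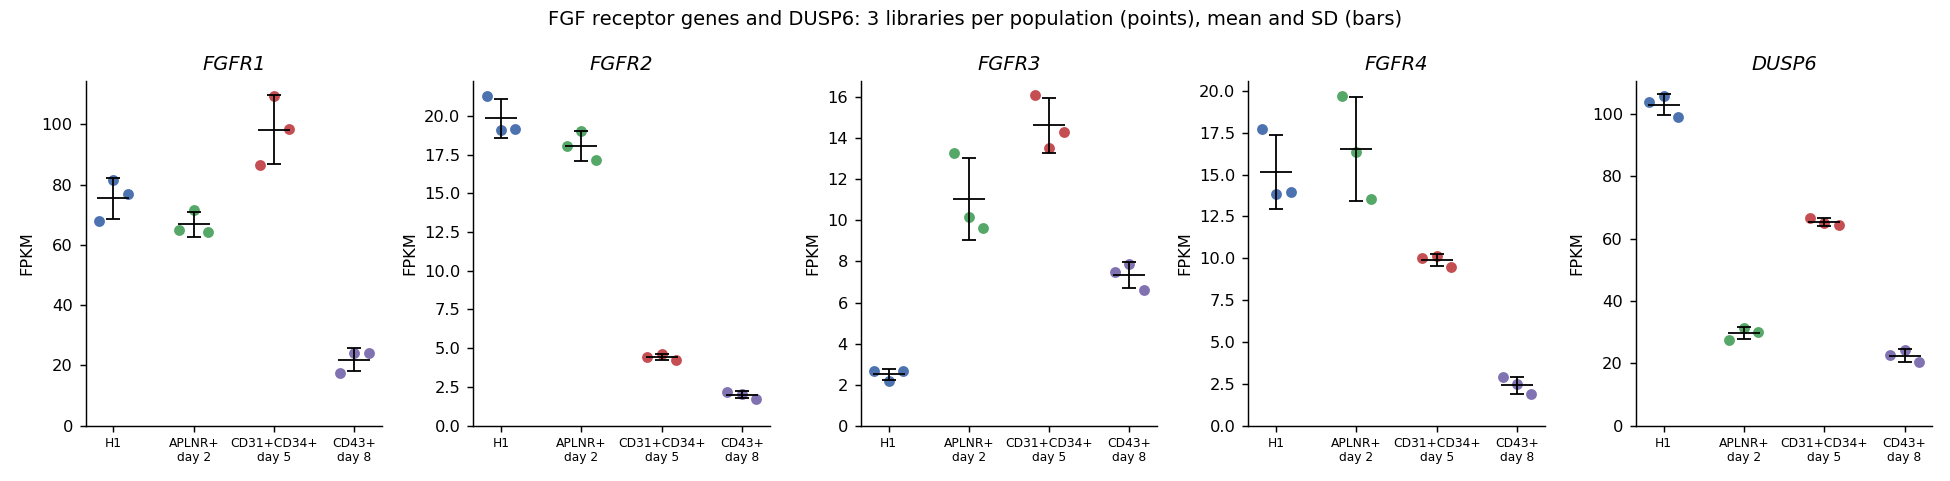
FPKM of the 4 receptor genes and of DUSP6 in each population, with 1 point per library and bars for the mean and SD (n = 3), each gene on its own linear axis. FGFR1, FGFR2 and FGFR4 are lowest in CD43+ cells, FGFR2 drops between APLNR+ and CD31+CD34+ cells, FGFR3 is at 2.17 to 2.68 FPKM in H1 and at 6.63 FPKM or more elsewhere, and DUSP6 falls, rises and falls.

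Because FGFR2, FGFR3 and FGFR4 took different courses, the sequence before their first listed RefSeq start is shown for each. RefSeq promoter windows of GRCh38.p14 matched 5 of the 10 genes by symbol (FGF2, FGFR2, FGFR3, FGFR4 and DUSP6). The 200 bases from 250 to 51 before the start are printed 5′ to 3′ on the gene's strand, and none of the 3 windows overlaps an annotated exon. Capitals mark the Sp1 box GGGCGG read on either strand. The windows are chr10:121598495-121598694 on the minus strand for FGFR2, chr4:1793043-1793242 on the plus strand for FGFR3 and chr5:177086665-177086864 on the plus strand for FGFR4.
FGFR2: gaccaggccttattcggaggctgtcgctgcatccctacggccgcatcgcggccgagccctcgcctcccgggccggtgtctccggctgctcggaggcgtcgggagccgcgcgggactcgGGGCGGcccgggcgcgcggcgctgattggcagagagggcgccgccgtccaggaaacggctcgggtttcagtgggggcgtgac
FGFR3: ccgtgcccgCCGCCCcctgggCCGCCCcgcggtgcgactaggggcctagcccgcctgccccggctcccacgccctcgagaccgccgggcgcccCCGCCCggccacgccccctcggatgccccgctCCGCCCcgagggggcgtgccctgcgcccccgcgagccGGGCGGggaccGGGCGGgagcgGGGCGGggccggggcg
FGFR4: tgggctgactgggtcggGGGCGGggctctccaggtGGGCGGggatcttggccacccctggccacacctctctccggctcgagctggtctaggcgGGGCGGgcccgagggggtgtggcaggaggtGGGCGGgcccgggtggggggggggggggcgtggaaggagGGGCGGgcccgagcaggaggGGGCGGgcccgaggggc
All 3 windows are rich in G and C, at 75% for FGFR2, 87.5% for FGFR3 and 79.5% for FGFR4. The FGFR2 window holds 1 Sp1 box, the FGFR3 window 7 and the FGFR4 window 6, and 35.0% of 35116 such windows hold at least 1. GGAA, the core bound by ETS factors such as ETV4, occurs 1 time in the FGFR2 and FGFR4 windows on either strand and 0 times in the FGFR3 window, while 88.2% of all windows hold it. RefSeq lists 4 further starts for FGFR2 and 1 for FGFR4, whose windows hold 0 Sp1 boxes, from 1 to 5 GGAA and from 42% to 58.5% G and C. These matches describe the letters only. Which start each population used was not analysed here.

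Summed over the 4 receptor genes, transcript levels were 113 ± 3.45 FPKM in H1 and 112.5 ± 7.01 in APLNR+ cells, then 127 ± 10.4 in CD31+CD34+ and 33.7 ± 3.21 in CD43+ cells (SD, n = 3). Every CD43+ library was below every other library, and H1 and APLNR+ libraries overlapped. FGFR1 held 66.7 ± 4.13%, 59.5 ± 3.08%, 77.1 ± 2.85% and 64.8 ± 6.05% of the sum in the order of differentiation. The share of FGFR2 was 17.6 ± 1.59% in H1 and 16.1 ± 0.444% in APLNR+ cells, against 3.49 ± 0.245% in CD31+CD34+ and 5.98 ± 1.15% in CD43+ cells. FGFR3 went from 2.21 ± 0.307% in H1 through 9.80 ± 1.49% and 11.6 ± 2.00% to 21.9 ± 2.80% in CD43+ cells, with no overlap between H1 and the other populations. FGFR4 held 13.5 ± 2.33%, 14.6 ± 2.11%, 7.80 ± 0.642% and 7.30 ± 2.12%. The smallest p of an exact permutation test with 3 libraries a side is 0.1, so the shares are given without a test.

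**Figure D3:**
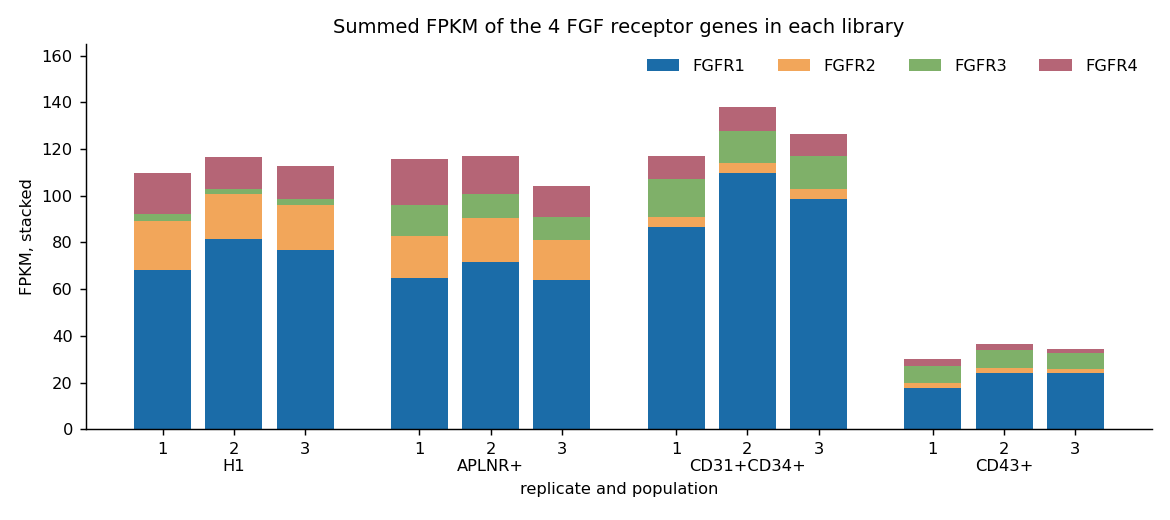
FPKM of FGFR1, FGFR2, FGFR3 and FGFR4 stacked for each of the 12 libraries, grouped by population, on a linear axis from 0. The sum is between 104 and 138 FPKM in the 9 libraries before the CD43+ stage and between 30.2 and 36.5 FPKM in CD43+ libraries, where FGFR3 takes a larger share than in H1.

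DUSP6, the phosphatase that switches off ERK, went down, up and down. It stood at 104, 106 and 99.2 FPKM in H1, at 27.5, 31.3 and 30.2 in APLNR+, at 66.7, 64.95 and 64.3 in CD31+CD34+ and at 22.7, 24.3 and 20.3 in CD43+ libraries. No 2 populations overlapped. DUSP6 fell by 1.76 ± 0.09 on the log2 scale from H1 to APLNR+ (limma adjusted p = 5.24e-09), rose by 1.11 ± 0.09 to CD31+CD34+ (limma adjusted p = 2.2e-07) and fell by 1.503 ± 0.09 to CD43+ cells (limma adjusted p = 3.15e-08). After quantile normalization the rise was 0.94 (limma adjusted p = 5.72e-07), just under 2-fold. The antisense gene AC024909.2 covers 1875 exonic bases (40.5%) of DUSP6 and was listed at 0 in all 12 libraries.

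At the level of whole steps, 3 of the 9 tested genes were raised and 3 lowered at the first step, H1 to APLNR+, against 15.9% of all 14840 genes tested that were called either way (8.3% raised and 7.62% lowered). At the middle step, APLNR+ to CD31+CD34+, DUSP6 was the 1 raised and 4 were lowered, where 29.6% of all genes were called (12.5% raised and 17.1% lowered). At the last step, CD31+CD34+ to CD43+, 0 rose and 5 were lowered, where 14.4% of all genes were called (5.58% raised and 8.79% lowered). Across the whole course from H1 to CD43+ cells, 6 were lowered (FGF2, FGF19, FGFR1, FGFR2, FGFR4 and DUSP6) and FGFR3 was raised, where 37.1% of all genes were called (14.6% raised and 22.5% lowered). From H1 to CD31+CD34+ cells FGF17 and FGFR3 were raised and FGF2 and FGFR2 lowered, where 40.1% of all genes were called (16.9% raised and 23.2% lowered). Between APLNR+ and CD43+ cells 0 rose and 6 fell (FGF2, FGF8, FGF17, FGFR1, FGFR2 and FGFR4), where 33.6% of all genes were called (14.1% raised and 19.4% lowered). The libraries of the 2 populations did not overlap for 7 of the 9 genes at the first step (66% of all genes), for 9 at the middle step (75.7%) and for 8 at the last (58%). The same held for 9 genes from H1 to CD43+ (76.3%), 7 from H1 to CD31+CD34+ (79%) and 9 from APLNR+ to CD43+ (75.4%). The median log2 change of the 9 genes at the 3 steps was -0.13, -0.67 and -1.13, beside -0.12, -0.01 and -0.0049 over all genes. As FGF8, FGF17 and FGF19 passed the filter through the populations in which they were high, these counts describe the genes and support nothing further. The comparisons share populations and are not independent of each other.

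**Figure D4:**
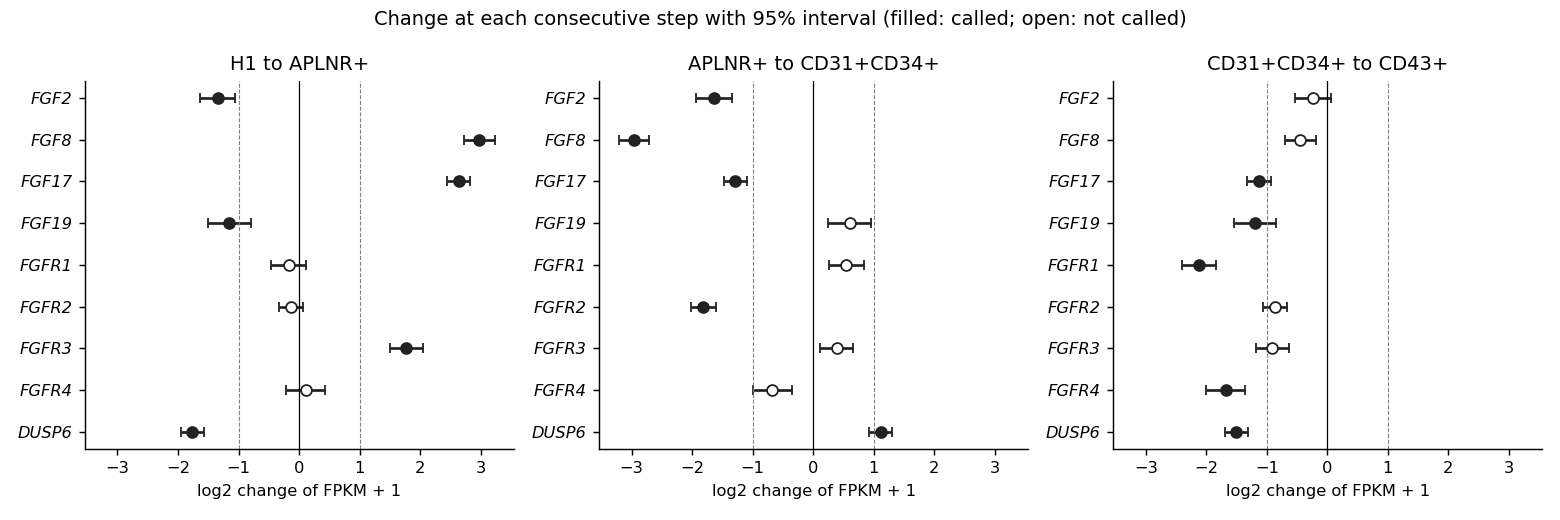
Change of the 9 tested genes at each consecutive step on the log2(FPKM + 1) scale, as points with 95% intervals, filled where called, with dashed lines at 2-fold. At the step to CD43+ cells all points lie below 0, and the interval of FGF2 (-0.53 to 0.06) includes it.

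Other genes listed as feedback inhibitors or as responding to ERK signalling took several courses. Whether ERK activity set their levels in these cells was not tested. Of 20 listed feedback inhibitors and ERK response genes, 16 were tested. From H1 to APLNR+ cells 4 were raised (DUSP5, EGR1, FOS and IER3) and 2 lowered (ETV1 and ETV4), where 15.9% of all genes were called. FOS, an immediate-early transcription factor, rose from 5.86 to 87.4 FPKM (log2 change 3.69, limma adjusted p = 9.42e-12), and EGR1, another, from 0.276 to 10.3 FPKM (3.14, limma adjusted p = 6.83e-11), while DUSP6 fell. At the middle step 4 were raised (DUSP7, ETV4, SPRED2 and SPRY1) and 2 lowered (EGR1 and IER3), where 29.6% of all genes were called. SPRY1, a Sprouty inhibitor of receptor tyrosine kinase signalling, rose from 5.71 to 44.2 FPKM (2.76, limma adjusted p = 4.13e-09), and IER3 fell from 12.4 to 2.46 FPKM (-1.95, limma adjusted p = 1.11e-08). IER3 passed the filter through libraries of 2 populations, so it had to differ between populations. In CD43+ against CD31+CD34+ cells 10 of the 16 were lowered and 2 raised (EGR1 and FOS), where 14.4% of all genes were called. Their median log2 change was -1.26 beside -0.0049 over all genes.

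At that last step ETV4, an ETS factor induced by FGF signalling, fell from 36.2 to 4.81 FPKM (-2.67, limma adjusted p = 1.42e-09), and SPRY4 fell from 27.9 to 4.16 FPKM (-2.47, limma adjusted p = 9.36e-08). The others lowered there were DUSP4, ETV5, IER3, IL17RD, PHLDA1, SPRED2, SPRY1 and SPRY2. ETV4 was called in the same directions as DUSP6 at all 3 steps, with means of 32.7, 13.2, 36.2 and 4.81 FPKM in the order of differentiation. It was singled out after its values were seen.

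**Figure D5:**
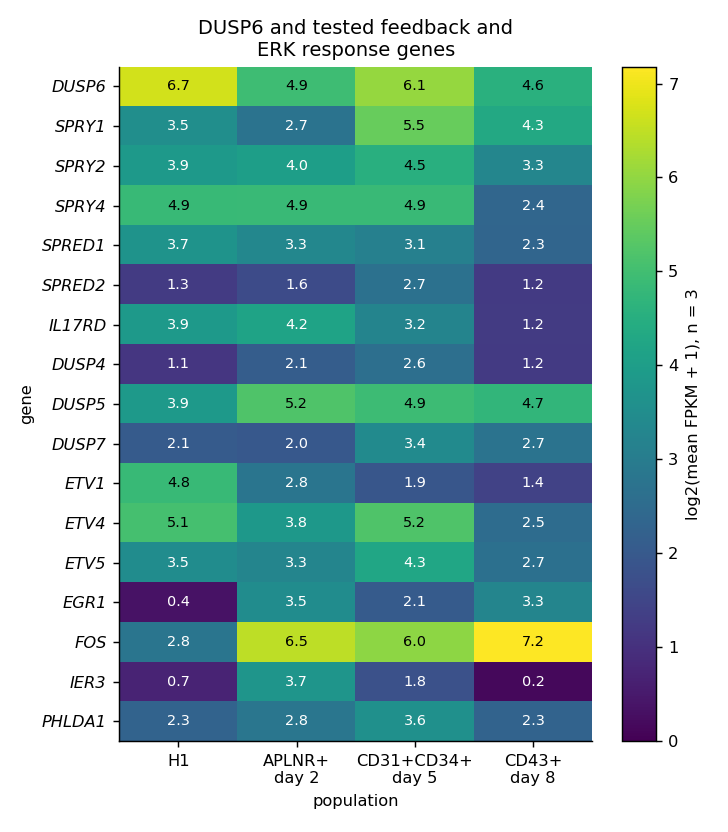
Heat map of log2(mean FPKM + 1), n = 3 libraries per population, for DUSP6 and the 16 tested feedback inhibitors and ERK response genes. DUSP6 and ETV4 dip in APLNR+ cells and recover in CD31+CD34+ cells, FOS and EGR1 are lowest in H1, and SPRY4 and IL17RD are lowest in CD43+ cells.

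Of the 17 other FGF genes, 5 reached the filter (FGF10, FGF11, FGF12, FGF13 and FGF23). From H1 to APLNR+ cells 1 was raised, FGF10, a ligand known from limb and heart mesoderm, from 0.115 to 18.6 FPKM (4.13, limma adjusted p = 2.81e-11), a mean above that of FGF8. FGF10 then averaged 9.68 FPKM in CD31+CD34+ cells (-0.88, limma adjusted p = 1.31e-05, under 2-fold) and was lowered to 3.37 FPKM in CD43+ cells (-1.28, limma adjusted p = 1.02e-06), so in both of these populations its mean exceeded each of the 5 ligands described above and it is not part of their sum. FGF13, an intracellular family member that does not signal as a ligand, was lowered from 17.7 to 7.01 FPKM at the next step (-1.22, limma adjusted p = 1.88e-06) and to 1.33 FPKM at the last (-1.79, limma adjusted p = 1.35e-07). FGF23, an endocrine ligand, was listed at 0.0101 FPKM in CD31+CD34+ and 2.41 FPKM in CD43+ cells (1.75, limma adjusted p = 9.83e-09). It passed the filter through the CD43+ libraries alone and so had to differ. At that step 1 was raised and 3 were lowered, where 14.4% of all genes were called.

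Of 9 coreceptor and FGF binding protein genes, 4 were tested. The FLRT genes encode membrane proteins that bind FGF receptors. From H1 to APLNR+ cells FLRT3 rose from 0.254 to 6.53 FPKM (2.56, limma adjusted p = 1.17e-08) and FLRT2 from 1.02 to 8.69 FPKM (2.27, limma adjusted p = 1.52e-08), and 1 gene was lowered, where 15.9% of all genes were called. FGFBP3, a secreted FGF binding protein, rose from 6.12 to 23.6 FPKM on the way to CD31+CD34+ cells (1.79, limma adjusted p = 9.22e-09), while FLRT3 fell to 1.54 FPKM (-1.55, limma adjusted p = 6.85e-07). At the last step, where 14.4% of all genes were called, 3 were lowered, among them FGFBP3 to 4.49 FPKM (-2.17, limma adjusted p = 3.33e-09) and FGFRL1, a receptor without a kinase domain, from 5.75 to 1.54 FPKM (-1.41, limma adjusted p = 1.21e-06).

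Heparan sulfate core proteins and enzymes build the chains that hold FGFs to their receptors, and 21 of the 24 listed were tested. From H1 to APLNR+ cells 8 were raised and 1 lowered, where 15.9% of all genes were called, led by SULF2, an enzyme that trims sulfate from the chains (4.62 to 31.3 FPKM, 2.53, limma adjusted p = 2.01e-08), and HS3ST1, a sulfotransferase (0.136 to 5.50 FPKM, 2.44, limma adjusted p = 5.73e-06). HS3ST1 passed the filter through libraries of 2 populations, so it had to differ between populations. At the next step 3 genes of the list were raised and 9 lowered, where 29.6% of all genes were called. HSPG2, the basement membrane proteoglycan perlecan, rose from 12.5 to 53.0 FPKM (2.00, limma adjusted p = 2.04e-08), and HS6ST1, another sulfotransferase, fell from 43.6 to 11.5 FPKM (-1.84, limma adjusted p = 9.22e-09). At the last step 0 rose and 11 were lowered, where 14.4% of all genes were called, with a median log2 change of -1.09 beside -0.0049 over all genes. GPC1, a glypican, fell from 15.5 to 2.16 FPKM (-2.39, limma adjusted p = 1.24e-08) and SDC4, a syndecan, from 24.0 to 4.12 FPKM (-2.28, limma adjusted p = 6.26e-10).

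All 10 receptor adaptors and all 10 genes of the RAS to ERK cascade were tested, and 0 of either list were called from H1 to APLNR+ cells, where 15.9% of all genes were called and the median log2 changes of the lists were 0.21 and -0.10. From APLNR+ to CD31+CD34+ cells the adaptor SHC1 rose from 46.0 to 183 FPKM (1.96, limma adjusted p = 1.76e-06), and PTPN11, the phosphatase SHP2, fell from 43.1 to 17.0 FPKM (-1.29, limma adjusted p = 7.64e-07). MAPK3, which encodes ERK1, rose from 10.2 to 27.3 FPKM (1.33, limma adjusted p = 8.53e-05), and 1 other cascade gene was raised, where 29.6% of all genes were called. At the last step CBL, a ubiquitin ligase for activated receptors, fell from 11.8 to 4.49 FPKM (-1.21, limma adjusted p = 5.84e-05) and HRAS from 25.3 to 11.7 FPKM (-1.05, limma adjusted p = 3.24e-05), with 0 raised in either list, where 14.4% of all genes were called.

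Splicing factors that choose between ligand-binding forms of FGFR1, FGFR2 and FGFR3 also moved, and gene-level FPKM does not separate those forms. Of 5 such genes, 0 were raised and 3 lowered from H1 to APLNR+ cells, where 15.9% of all genes were called. ESRP1, the epithelial regulator, fell at each step, from 31.7 to 9.44 FPKM (-1.65, limma adjusted p = 1.62e-07), to 3.36 FPKM (-1.25, limma adjusted p = 1.17e-06) and to 0.848 FPKM (-1.23, limma adjusted p = 2.68e-06). MBNL1 fell from 7.02 to 1.95 FPKM (-1.46, limma adjusted p = 2.38e-05) and rose to 9.83 FPKM in CD31+CD34+ cells (1.87, limma adjusted p = 1.54e-06). RBFOX2 fell from 29.6 to 12.6 FPKM at the last step (-1.18, limma adjusted p = 4.99e-05).

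Genes with the most similar pattern to each tested gene were found by the Pearson correlation of log2(FPKM + 1) over the 12 libraries, among 7717 or 7718 genes whose highest population mean was at least 10 FPKM. The points share populations and libraries, so the values describe resemblance only. FGF2 was most like the noncoding LINC00678 (r = 0.997), NAA50 (0.994) and PPM1B (0.992). The genes closest to FGF8 were LZTS1 (0.996), PRSS35 (0.995) and AL353751.1 (0.994), and those closest to FGF17 were SERPINE2 (0.995), KRT16P1 (0.994) and ANKRD1 (0.994). SERPINE2, a secreted protease inhibitor, reached 399 FPKM in APLNR+ cells against 12.8 in H1. FGF19 had weaker neighbours, PCDH1, DPYSL2 and MARCKSL1 (each 0.969).

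Among receptors, FGFR1 was most like CRMP1 (0.996), DNAJB5 (0.988) and ARHGEF40 (0.98), and FGFR2 like TUNAR (0.997), ATP1B1 (0.993) and FMNL2 (0.993). FGFR3 was most like SOGA1 (0.992), MRC2 (0.99) and KIFC3 (0.987). The neighbours of FGFR4 were SLC7A8 (0.995), EPS8L2 (0.989) and IL17RD (0.985). IL17RD encodes a membrane inhibitor of FGF receptors and averaged 13.5, 16.9, 8.37 and 1.37 FPKM in the order of differentiation. DUSP6 was most like CHMP4B (0.987), TMTC4 (0.986) and PCDH1 (0.977), the last of which was also a neighbour of FGF19.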

How the data were processed

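RNA-seq values of 12 libraries were used, 3 for each of 4 populations, grouped and numbered by sample title. Per the labels, RNA was harvested with Trizol, and libraries were made with a TruSeq kit from Illumina that does not mark strand. Sequencing was shared between companies, and which of them sequenced a given library is not given in the sources used here. The values deposited by the authors are FPKM, in 1 table whose 12 columns match the samples by title. The submitters' processing notes name BWA, Bowtie, RSEM and the build hg19, without role or version. The reference used here (GENCODE release 29, GRCh38, and RefSeq windows of GRCh38.p14) is another build, so no coordinates of the table are given. The table held 58365 gene entries and 1 line of text, which was left out. Summed FPKM per library ranged from 568036 to 1576040.

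Genes with at least 1 FPKM in at least 3 libraries (14840) were tested on log2(FPKM + 1) with limma 3.58.1 in R 4.3.3 (lmFit, contrasts.fit, eBayes with trend), in a single model of the 4 populations without covariates, with Benjamini-Hochberg adjustment over all genes of a comparison. Calls required an adjusted p below 0.05 and 2-fold or more. The fit was tested on simulated data. Precision is limited by 3 libraries per population. The genes followed and all lists were chosen with earlier results of these data known. From each pathway list the 2 called genes with the largest change at each step are named, and for each tested gene the 3 most similar genes. A result for 1 gene that this rule picks is not reported here.

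Libraries with the same replicate number deviated together in every pair from CD31+CD34+ to CD43+ (correlations 0.392, 0.205 and 0.192) and from H1 to CD43+ (0.386, 0.247 and 0.174), which was taken from the data, since the labels say nothing of pairing. Replicates 2 and 3 also correlated across unlike numbers, at 0.161 and 0.0281 in the former and 0.134 and 0.0901 in the latter. Pairs of replicate 1 with another number ran from -0.311 to -0.179 and from -0.323 to -0.222. The fit with the replicate number as a block was run as an alternative, beside another pseudocount, other filters and minimum changes, upper-quartile scaling, quantile normalization, eBayes without trend, fits to the compared populations alone, replicates 2 and 3 alone, and leaving out each library. Python 3.11.15 with pandas 2.3.3 read the table, and matplotlib 3.10.9 drew the figures.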

Additional observations from a re-analysis of the deposited data

How the results depend on the processing

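Of 587 log2 changes recomputed under an alternative, 570 kept their direction and their side of the thresholds, 14 newly passed, 1 fell short and 2 reversed. Of 132 recomputed counts of called genes and receptor shares, 127 stayed within 1.5 times or 1 SD and 5 counts moved further. Among genes averaging at least 5 FPKM, 6 of the genes entered and 3 were called at each consecutive step, fewer by construction. With no minimum change, 9 were called from APLNR+ to CD31+CD34+ and 8 from CD31+CD34+ to CD43+. The reversed values, both of uncalled genes from H1 to APLNR+, were 0.086 for FGFR1 after quantile normalization and -0.0176 for FGFR4 without APLNR+ replicate 1 (up to 0.238 without another library), and their causes were not tested. The DUSP6 rise to CD31+CD34+ cells fell short of 2-fold after quantile normalization (0.94). With a pseudocount of 0.1, changes of low genes passed 2-fold: FGF19 from APLNR+ to CD31+CD34+ (1.11), FGF8 (-1.52) and FGFR2 (-1.12) from CD31+CD34+ to CD43+, and FGF8 (-1.501) and FGF17 (1.19) from H1 to CD43+. Leaving out 1 library gave 5 to 6, 4 to 5 and 5 called genes at the 3 steps and 7 from H1 to CD43+. Without any 1 APLNR+ library FGF8 no longer reached the filter. With the replicate number as a block, 6, 5, 5 and 7 genes were called in these comparisons, as without it, and no call among them changed. At the first and the middle step the same-number correlations did not all exceed 0.1 (lowest of all pairs -0.0214). For replicates 1, 2 and 3 they were 0.429, 0.23 and -0.0214 at the first step. At the middle step they were 0.196, 0.0254 and 0.0397, and whether these libraries are paired is not known. Across unlike numbers at the first step, replicates 2 and 3 gave 0.276 and 0.289, and pairs with replicate 1 gave -0.404 to -0.165. Unknown depth and 3 libraries per population limit values under 1 FPKM most.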

Other observations

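Replicate 1, the shallowest library of each population, stood apart from replicates 2 and 3 for some of these genes. FGF19 was lowest in replicate 1 in 4 of 4 populations, as were 18.7% of all 14840 genes tested. FGFR1 was lowest in replicate 1 in 3 of 4 populations, as were 40.1% of all genes in at least 3, and its share of the summed receptor FPKM in 4 of 4. FGFR4 and FGF2 were highest in replicate 1 in 3 of 4 populations, as were 14.3% of all genes in at least 3. The part of depth in these differences was not tested.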
